A study of Mus musculus with 4 samples.

Results

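Type I interferon stimulated genes were followed in immune cells from B16-F10 tumours, a transplantable mouse melanoma grown in C57BL/6 mice. The set has 37 members, taken by symbol from the 28692 genes listed in the files: Isg15, Isg20, Ifit1, Ifit2, Ifit3, Ifit3b, Ifi27l2a, Ifi44, Ifi35, Mx1, Oasl1, Oasl2, Oas1a, Oas2, Oas3, Rsad2, Usp18, Rtp4, Ddx58, Ifih1, Dhx58, Ddx60, Stat2, Zbp1, Xaf1, Trim30a, Parp9, Parp14, Dtx3l, Cmpk2, Herc6, Lgals3bp, Bst2, Slfn5, Samd9l, Epsti1 and Eif2ak2. All 37 were found once each. Tumour-bearing mice received Pmel-1 cells, CD8 T cells with a transgenic receptor for a melanocyte antigen, 3 days after tumour implantation, and tumours were taken on day 14. The IRF4 arm received Pmel-1 cells transduced with IRF4 and GFP, and the control arm received cells carrying GFP alone. From each arm 2 libraries were sorted, the transduced Pmel-1 cells (IRF4_Pmel and Ctrl_Pmel) and the endogenous CD45+ cells of the host (IRF4_TILs and Ctrl_TILs). All mice therefore carried the tumour and received transduced T cells, and no library analysed here came from a tumour without them. Each of the 4 groups is 1 library, and the labels do not say how many mice were pooled, so no difference between libraries has a replicate check.

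Type I interferons, the interferon alphas and interferon beta, act through a receptor made of IFNAR1 and IFNAR2, whose kinases are JAK1 and TYK2. The signal passes to a complex holding STAT2 and IRF9, which binds the interferon-stimulated response element (ISRE) in promoters. The induced genes include antiviral effectors, sensors of foreign RNA and DNA, and feedback regulators. Interferon gamma, made by T and NK cells, acts through a receptor of its own and induces an overlapping set. IRF4, the transduced factor, belongs to the interferon regulatory factor family and is known in T cells for its induction by antigen receptor signals.

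The ISRE core was searched as GAAA, any 2 bases and GAAA again, on both strands and with overlapping matches counted, in windows from 250 bases before to 50 bases after the start site, from RefSeq on GRCm38.p6. A window was held for 28 of the 37 members. At least 1 match stood in 15 of these 28 members (53.6%), while of all 27025 gene symbols in the table, counted the same way, 3.99% had one. The 6 windows shown are those of Isg15, which held the most matches, of 3 genes of the Ifit cluster, and of Bst2 and Epsti1, whose levels are described by cell class further on. Capitals mark the matches.

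Isg15, chr4:156200769-156201068, minus strand: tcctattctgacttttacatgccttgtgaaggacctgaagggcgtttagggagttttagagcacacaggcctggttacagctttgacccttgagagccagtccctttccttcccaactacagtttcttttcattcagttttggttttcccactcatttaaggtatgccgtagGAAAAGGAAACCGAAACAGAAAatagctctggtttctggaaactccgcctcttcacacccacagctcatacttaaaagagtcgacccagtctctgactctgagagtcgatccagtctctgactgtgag
Ifit1, chr19:34640639-34640938, plus strand: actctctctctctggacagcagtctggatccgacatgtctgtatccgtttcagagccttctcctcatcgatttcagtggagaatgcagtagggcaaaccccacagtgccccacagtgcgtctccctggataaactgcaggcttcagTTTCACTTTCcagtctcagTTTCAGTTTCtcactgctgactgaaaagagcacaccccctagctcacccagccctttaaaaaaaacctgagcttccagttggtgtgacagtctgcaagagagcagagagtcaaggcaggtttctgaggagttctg
Ifit3, chr19:34583279-34583578, plus strand: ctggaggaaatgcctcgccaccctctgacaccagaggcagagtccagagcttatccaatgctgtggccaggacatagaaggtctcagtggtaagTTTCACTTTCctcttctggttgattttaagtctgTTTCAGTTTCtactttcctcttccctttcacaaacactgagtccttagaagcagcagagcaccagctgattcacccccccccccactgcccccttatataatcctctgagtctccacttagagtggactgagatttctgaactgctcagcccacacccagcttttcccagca
Ifit3b, chr19:34607707-34608006, plus strand: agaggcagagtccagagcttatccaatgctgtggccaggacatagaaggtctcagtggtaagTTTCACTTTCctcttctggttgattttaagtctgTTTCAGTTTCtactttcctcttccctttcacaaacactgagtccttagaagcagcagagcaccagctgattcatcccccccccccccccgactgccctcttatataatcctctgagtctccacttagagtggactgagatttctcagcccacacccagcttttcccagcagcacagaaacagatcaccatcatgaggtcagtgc
Bst2, chr8:71537423-71537722, minus strand: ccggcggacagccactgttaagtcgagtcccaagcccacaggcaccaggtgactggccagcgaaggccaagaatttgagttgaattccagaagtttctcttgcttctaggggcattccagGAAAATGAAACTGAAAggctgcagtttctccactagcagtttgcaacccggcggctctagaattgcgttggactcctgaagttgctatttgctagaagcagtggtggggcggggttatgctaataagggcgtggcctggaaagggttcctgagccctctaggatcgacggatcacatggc
Epsti1, chr14:77903989-77904288, plus strand: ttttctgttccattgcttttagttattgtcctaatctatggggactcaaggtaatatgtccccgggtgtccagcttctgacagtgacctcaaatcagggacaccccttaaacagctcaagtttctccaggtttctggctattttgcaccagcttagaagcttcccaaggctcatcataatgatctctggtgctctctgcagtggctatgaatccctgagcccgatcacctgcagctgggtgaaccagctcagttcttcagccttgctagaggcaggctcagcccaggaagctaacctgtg

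The Isg15 window held 3 overlapping matches on the gene's own strand, the first beginning 78 bases before the start site. The Ifit1, Ifit3 and Ifit3b windows each held 2 on the opposite strand, beginning 104, 156 and 188 bases before the start site. Aligned end to end, the Ifit3 and Ifit3b windows had equal letters at 259 of 260 paired bases, and the other 80 of 340 columns were gaps, in part because the windows are offset against each other. Bst2 held 2 overlapping matches from 130 bases before the start site, and the Epsti1 window held none. The other 12 members with a window and no match were Cmpk2, Dtx3l, Herc6, Ifi35, Ifi44, Ifit2, Isg20, Lgals3bp, Oasl1, Oasl2, Samd9l and Xaf1. A match is a description of the letters in the window and says nothing on whether a factor binds there.

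Members sat on 14 chromosomes, with some close neighbours. Ifit2, Ifit3, Ifit3b and Ifit1 lay in that order between positions 34550694 and 34650009 of chromosome 19, all on the plus strand. Rsad2 (chr12:26442746-26456452) and Cmpk2 (chr12:26469204-26479837) were 12.8 kb apart and pointed away from each other. Near copies can share reads: of the 451 different 50-base stretches in the last 500 bases of Oas1a transcripts, 56.1% also occurred in Oas1g, and 14.9% of those of Ifit3 also occurred in Ifit3b. None of the stretches at the end of Ifit3b occurred in Ifit3. Levels of Oas1a and Ifit3 are therefore uncertain to that extent.

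The libraries held 16664323 to 94686409 UMIs. After filtering, 572 cells were kept in IRF4_Pmel, 6371 in IRF4_TILs, 2513 in Ctrl_Pmel and 5676 in Ctrl_TILs, and at most 13 barcodes were shared by any pair. The marker gates placed 86.9% of kept cells of IRF4_Pmel and 85.3% of Ctrl_Pmel among CD8 T cells. CPM stands for UMIs per 1000000 UMIs of the same cells, and brackets hold 95% counting intervals. Irf4 stood at 28.1 CPM in CD8 T cells of IRF4_Pmel and at 26.2 in those of Ctrl_Pmel. The ratio of 1.07 (0.962 to 1.19) does not separate the libraries, and a transgene without the natural 3′ end would not be counted here, so this measure does not check the arm labels. Hbb-bs, a haemoglobin gene of red cells, was between 22.4 and 187 CPM in the classes of Ctrl_TILs, at 18.8 CPM in CD8 T cells of Ctrl_Pmel, and below 1 CPM in every class of both IRF4 libraries. S100a8, a neutrophil gene, went the other way in transferred cells. In CD8 T cells it was at 20.3 CPM in IRF4_Pmel, 1.25 in Ctrl_Pmel, 0.464 in IRF4_TILs and 1.23 in Ctrl_TILs. The part of RNA from outside the cells in the member values was not tested.

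Members were detected in all 12 cell classes, and the summed level was highest in monocytes and macrophages, neutrophils and plasmacytoid dendritic cells. The summed level of the 37 members in IRF4_TILs was 6604 CPM (6562 to 6646) in monocytes and macrophages, 6196 (5715 to 6708) in neutrophils and 6035 (5874 to 6200) in plasmacytoid dendritic cells. It was 4345 CPM in type 2 conventional dendritic cells, 4115 in CD4 T cells, 3484 in regulatory T cells and 3385 in mature dendritic cells. CD8 T cells had 1833 CPM, NK cells 1765, B cells 1585, type 1 conventional dendritic cells 1520 and mast cells or basophils 1126. The intervals of neutrophils overlapped those of monocytes and macrophages and of plasmacytoid dendritic cells, and those of regulatory T cells and mature dendritic cells overlapped each other.

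In Ctrl_TILs the order began with plasmacytoid dendritic cells at 5245 CPM (5142 to 5349) and neutrophils at 5129 (4795 to 5479), whose intervals overlapped. Monocytes and macrophages followed at 3653 CPM (3632 to 3674). Mature dendritic cells had 3170, regulatory T cells 3102, type 2 conventional dendritic cells 2835 and CD4 T cells 2326. The lowest were CD8 T cells at 1960, B cells at 1739, NK cells at 1666, type 1 conventional dendritic cells at 1484 and mast cells or basophils at 688. Mature dendritic cells and regulatory T cells overlapped in their intervals, as did B and NK cells. Neutrophil values rest on 37 cells in IRF4_TILs and 74 in Ctrl_TILs, and those of mast cells or basophils on 31 and 35. The neutrophil sums came from few cells: after thinning each cell to 2000 UMIs, which left 32 and 43 cells, the median was 4 and 3 member UMIs per cell against means of 11.8 and 8.72, and the 10% of cells with most held 49.7% and 42.7% of them.

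**Figure D1:**
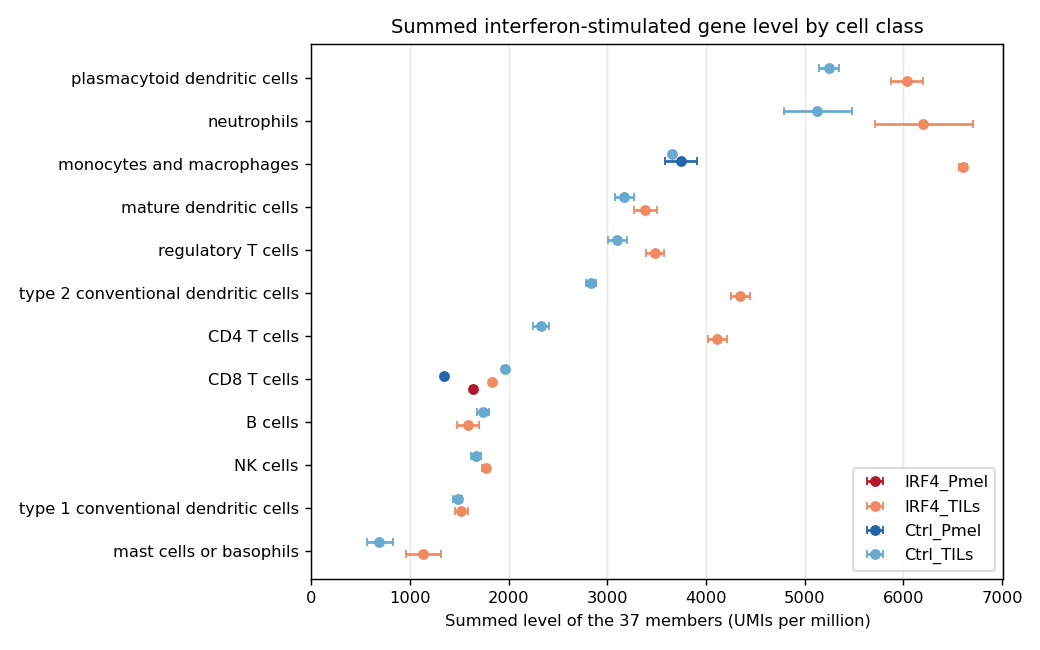
Summed level of the 37 members in CPM (x axis) in 12 cell classes (y axis), 1 point per library with its 95% counting interval. CD8 T cells of the 4 libraries lie between 1347 and 1960, and monocytes and macrophages of IRF4_TILs reach 6604.

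The class with the highest level was the same in both endogenous libraries for 25 of the 37 members. Neutrophils were highest in both for 12 of them, including Rsad2, Ifit1, Oasl2 and Rtp4. Rsad2, which encodes viperin, an antiviral enzyme, was at 578 CPM in neutrophils of IRF4_TILs and at 210 in those of Ctrl_TILs. In monocytes and macrophages the same gene was at 259 and 97.7 CPM. Oasl2, of the 2′-5′ oligoadenylate synthetase-like family, was at 375 and 583 CPM in neutrophils and at 1.67 and 9.18 in type 1 conventional dendritic cells.

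Bst2, encoding tetherin, which holds budding virus at the cell surface, was highest in plasmacytoid dendritic cells. Its level was 3823 CPM (3695 to 3955) there in IRF4_TILs and 3455 (3372 to 3539) in Ctrl_TILs. The next class, type 2 conventional dendritic cells, had 529 and 353 CPM. Bst2 supplied 63.3% and 65.9% of the member UMIs of plasmacytoid dendritic cells, so most of their summed level is that of 1 gene. Bst2 was not among the markers that set the gate.

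Epsti1 was highest in mature dendritic cells, at 1059 CPM in IRF4_TILs and 871 in Ctrl_TILs, followed by NK cells at 460 and 479. Lgals3bp, a secreted glycoprotein that binds galectin 3, was highest in monocytes and macrophages (104 and 92.3 CPM) and next in NK cells (88.5 and 75.9). Samd9l was at 149 CPM in B cells of IRF4_TILs and 214 in those of Ctrl_TILs, and at 29.4 and 33.0 in mature dendritic cells.

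Over 22 class and library points with at least 50 cells, the members followed their common sum unequally. The Pearson correlation of log2 CPM with the log2 sum of the other members was 0.78 for Oasl2, 0.75 for Usp18, a brake on receptor signalling, 0.74 for Ifih1 and 0.73 for Isg15. It was 0.06 for Samd9l, 0.05 for Bst2, -0.04 for Ddx58 and -0.19 for Epsti1. The points share libraries and depth, so these values are a description. Among genes outside the set that reached 50 CPM, those with the highest Pearson correlation with the summed members over the same points included Tmbim6 (0.86), Irf7 (0.86), Mapkapk2 (0.84), Lamp2 (0.83), Itm2b (0.82), Rtfdc1 (0.81), Rell1 (0.80), Trim30d (0.80) and Fgr (0.79).

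**Figure D2:**
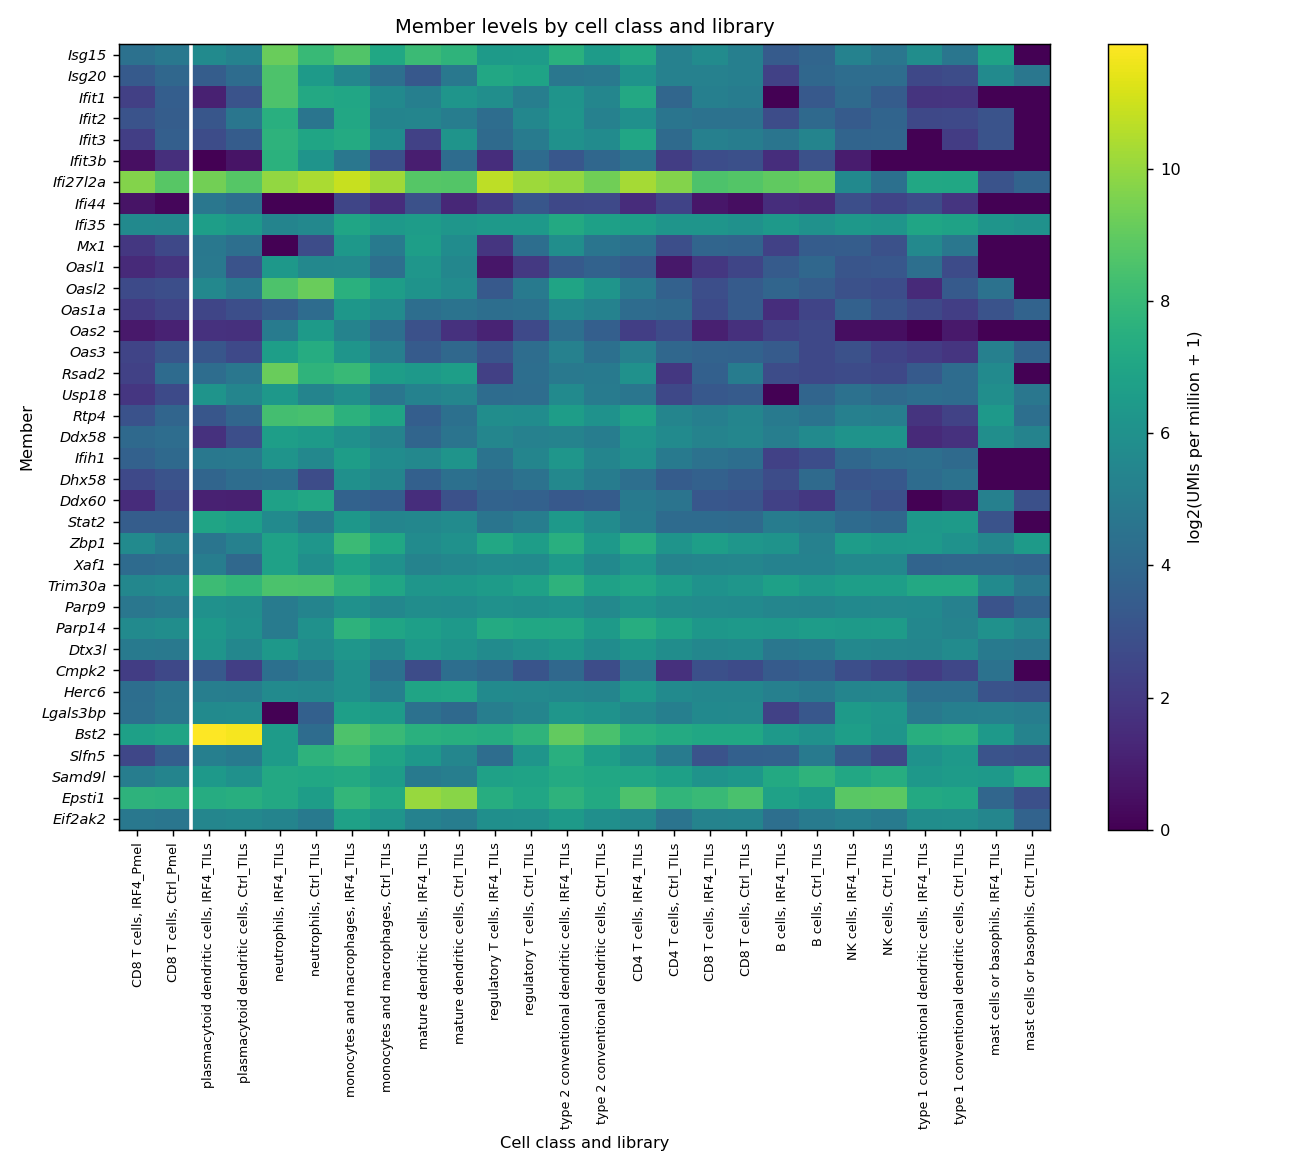
Level of each member as log2(CPM + 1) (colour) by cell class and library (columns), with the 2 transferred libraries left of the white line. Bst2 in plasmacytoid dendritic cells and Ifi27l2a in most columns are the brightest rows, and Ifi44 is dark nearly throughout.

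In transferred CD8 T cells Ifi27l2a was higher in IRF4_Pmel than in Ctrl_Pmel, and Ifit1, Ifit3 and Rsad2 were lower. Ifi27l2a, an interferon-induced gene of the Ifi27 family, was at 831 CPM in IRF4_Pmel and 442 in Ctrl_Pmel, a ratio of 1.88 (1.84 to 1.92). In the endogenous CD8 T cells it was at 376 CPM in IRF4_TILs and 416 in Ctrl_TILs. IRF4_Pmel thus stood above the other 3 CD8 populations, which lay close together.

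Of 25 members measured in transferred CD8 T cells, meaning at 10 CPM or more in either library, 2 were higher and 6 lower in IRF4_Pmel at a ratio of 1.5. Over all 7545 genes measured, 3.74% were higher and 2.96% lower. The second member higher was Zbp1, a sensor of left-handed nucleic acids, at 50.1 against 31.2 CPM. The median log2 ratio of the measured members was -0.23, against 0.02 for all genes measured. The summed level was 1636 CPM in IRF4_Pmel and 1347 in Ctrl_Pmel, a ratio of 1.21 (1.20 to 1.23). Without Ifi27l2a, which gave 50.8% of member UMIs in IRF4_Pmel and 32.8% in Ctrl_Pmel, the ratio was 0.889 (0.871 to 0.906), so the direction of the sum rests on that gene.

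The 6 members lower in IRF4_Pmel were Ifit1, Ifit3, Rsad2, Rtp4, Slfn5 and Isg20. All 6 reached 10 CPM only in Ctrl_Pmel, so the limit decides this count, which was 0 measured from 25 CPM and 11 measured from 1 CPM, and it is given as a description. Ifit1, whose product binds viral RNA lacking the host cap, was at 3.80 CPM in IRF4_Pmel, 10.9 in Ctrl_Pmel, 34.6 in IRF4_TILs and 30.8 in Ctrl_TILs. Ifit3, its partner, was at 3.66, 11.1, 35.7 and 31.9 CPM in the same order. Both were lowest in IRF4_Pmel and several times higher in both endogenous libraries. Their UMIs sat in few transferred cells. In IRF4_Pmel 3 of 497 cells held 50% of those of Ifit1 and 7 held 50% of those of Ifit3. In Ctrl_Pmel these were 18 and 19 of 2143 cells.

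Rsad2 was at 4.01 CPM in IRF4_Pmel, 16.6 in Ctrl_Pmel, 11.5 in IRF4_TILs and 31.3 in Ctrl_TILs. Few cells carried it: 5 of 2143 cells held 50% of the UMIs in Ctrl_Pmel and 2 of 710 in Ctrl_TILs, with 189 and 108 UMIs in the largest cell. Over cells without a UMI of 8 monocyte and macrophage markers, its log2 ratio went from -1.81 to -0.40 between the transferred libraries and from -1.37 to -0.43 between the endogenous ones. Both calls are lost in that setting, and the call between transferred libraries is also lost over cells without a UMI of 5 cycling markers, at -0.08.

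Rtp4, a chaperone of surface receptors, was at 6.91 CPM in IRF4_Pmel and 13.8 in Ctrl_Pmel. Slfn5, of the Schlafen family, was at 4.83 and 10.7, and Isg20, an exonuclease, at 9.32 and 14.8. The RNA helicase sensors were short of the limit or too low to be measured. Ddx58, which encodes RIG-I, had a ratio of 0.869, Ifih1, which encodes MDA5, had a ratio of 0.759, and Dhx58 (LGP2) was below 10 CPM in both. Isg15, the ubiquitin-like modifier, was at 20.9 and 25.9.

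Markers of other cells moved with these libraries. The 8 monocyte and macrophage markers summed to 287 CPM in CD8 T cells of IRF4_Pmel, 472 in Ctrl_Pmel, 107 in IRF4_TILs and 259 in Ctrl_TILs, with none of the 8 at 0. Without cells holding a UMI of these markers, 3 members in place of 6 were lower between transferred libraries. The share of CD8 T cells with a UMI of a cycling marker at 2000 UMIs per cell was 40.4% in IRF4_Pmel, 31.9% in Ctrl_Pmel, 40.9% in IRF4_TILs and 23.4% in Ctrl_TILs. Their part in the member values was not tested beyond these settings, which also change the depth of the cells kept. For a whole cell class, fewer expressing cells and less RNA per cell cannot be told apart in a sum.

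Endogenous CD8 T cells of the 2 arms were close. The summed level was 1833 CPM in IRF4_TILs and 1960 in Ctrl_TILs, a ratio of 0.935 (0.921 to 0.950), and this direction turned with every cell thinned to 2000 UMIs (log2 ratio 0.030 in place of -0.097). Of 28 members measured, 1 was higher and 2 lower in IRF4_TILs, beside 3.28% and 5.96% of all genes measured, and the median log2 ratio was 0.0029. Isg15 was at 52.6 CPM against 33.9, Rsad2 at 11.5 against 31.3 and Slfn5 at 7.36 against 11.6. These counts moved with the cells chosen: over cells without a UMI of the cycling markers 7 members were higher, and Slfn5 turned to a log2 ratio of 0.14.

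Transferred CD8 T cells carried less of most members than endogenous CD8 T cells in both arms. In the IRF4 arm 20 of 27 measured members were lower and 1 higher in the transferred cells, beside 8.98% lower and 5.98% higher among all genes measured, and the median log2 ratio was -1.10 against -0.06 for all genes. In the control arm 19 of 27 were lower and none higher, beside 12.0% and 6.02%, and the median was -0.84 against -0.08. The summed ratio of transferred over endogenous cells was 0.892 (0.879 to 0.906) in the IRF4 arm, while the control arm gave 0.687 (0.677 to 0.698). Without Ifi27l2a these became 0.552 and 0.586. Of the lower members, 9 of the 20 and 2 of the 19 reached 10 CPM only in the endogenous cells.

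Individual members spread widely in this contrast. Ifit3 had a ratio of 0.103 (0.0764 to 0.135) in the IRF4 arm, and the control arm gave 0.349 (0.307 to 0.397). Mx1, a dynamin-like antiviral GTPase, had 0.203 and 0.389, with levels of 2.76, 13.6, 5.05 and 13.0 CPM in IRF4_Pmel, IRF4_TILs, Ctrl_Pmel and Ctrl_TILs. Bst2, with 0.806 and 0.903, and Ifi35, with 0.683 and 0.738, were short of the limit in both arms. Ifi27l2a was 2.21-fold higher in transferred cells of the IRF4 arm and had a ratio of 1.06 in the control arm. The transferred and endogenous libraries also differed in depth, with median UMIs per CD8 T cell of 16392 and 20122 in the transferred and 10775 and 8925 in the endogenous libraries. With every cell thinned to 2000 UMIs the summed log2 ratios of transferred over endogenous cells were -0.26 and -0.75.

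**Figure D3:**
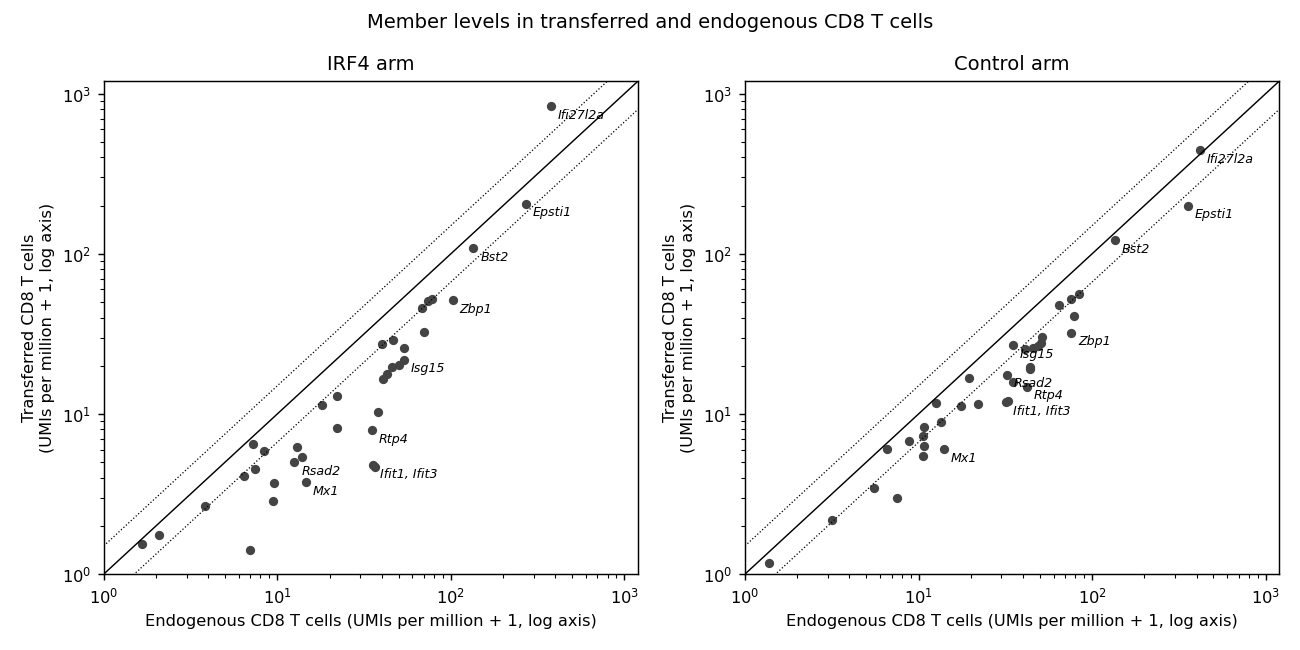
Level of each member in transferred (y axis) against endogenous (x axis) CD8 T cells, as CPM + 1 on log axes, for the 2 arms, with all 37 members drawn. The solid line marks equal levels and the dotted lines a ratio of 1.5: 20 measured members lie under the lower dotted line for the IRF4 arm and 19 for the control arm, with Ifi27l2a above the upper line in the IRF4 arm.

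Other genes of the pathway were counted in the same CD8 comparisons. Between transferred libraries none of 4 measured receptor genes, 5 signal transduction genes, 10 sensing genes or 5 feedback genes was called, and of 16 measured genes induced by interferon gamma, Cxcl9 was higher and Cxcl10 lower in IRF4_Pmel. Ifng itself was at 209 CPM in IRF4_Pmel and 328 in Ctrl_Pmel. Of 25 other interferon-induced genes measured, 1 was higher and 2 lower. In transferred over endogenous cells, 12 of 18 genes induced by interferon gamma were lower and 1 higher for the IRF4 arm, against 14 of 18 lower and none higher for the control arm.

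The spread over cells was read after thinning each cell to 2000 UMIs. At least 5 member UMIs were held by 36.2% of CD8 T cells of IRF4_Pmel (180 of 497 cells) and 18.4% of those of Ctrl_Pmel (16.8% to 20.2%, 395 of 2141 cells, with 2 shallower cells left out). The shares were 39.2% in IRF4_TILs (1976 cells) and 38.2% in Ctrl_TILs (710 cells). These shares depended on Ifi27l2a. Without it they were 6.84% (4.78% to 9.43%) in IRF4_Pmel and 8.08% (6.96% to 9.32%) in Ctrl_Pmel, whose intervals overlap, and 27.7% in IRF4_TILs and 28.2% in Ctrl_TILs, so both transferred libraries then stood below both endogenous ones. Without thinning and with Ifi27l2a the shares were 97.0%, 94.5%, 98.0% and 97.2%, in the order IRF4_Pmel, Ctrl_Pmel, IRF4_TILs and Ctrl_TILs.

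In monocytes and macrophages the share was 85.1% in IRF4_TILs (82.9% to 87.2%) and 61.6% in Ctrl_TILs (59.3% to 63.9%). In CD4 T cells it was 54.8% (49.1% to 60.5%) and 38.3% (32.1% to 44.8%). Without Ifi27l2a the shares were 63.0% and 40.2% in monocytes and macrophages and 36.5% and 19.6% in CD4 T cells. Regulatory T cells had 65.1% and 60.8%, type 2 conventional dendritic cells 69.6% and 52.7%, and neutrophils 46.9% and 44.2%. Plasmacytoid dendritic cells reached 98.7% and 96.3%. The lowest shares were in mast cells or basophils, 12.9% and 2.86%, at a median of 3847 and 4327 UMIs per cell. Free RNA in droplets can add member UMIs to any class, its part was not tested, and no class here is known to lack these genes. The 10% of cells with most member UMIs held 31.8% of them in CD8 T cells of Ctrl_Pmel, against 17.6% and 18.9% in plasmacytoid dendritic cells of IRF4_TILs and Ctrl_TILs.

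**Figure D4:**
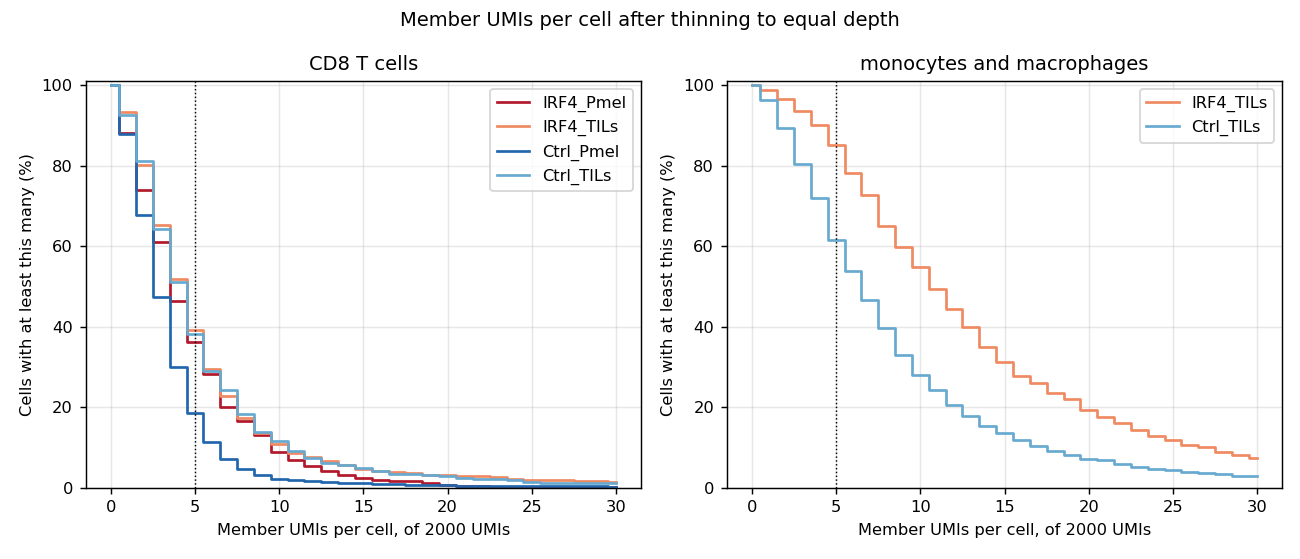
Share of cells (y axis, %) with at least the given number of member UMIs (x axis) after thinning to 2000 UMIs per cell, for CD8 T cells of 4 libraries and for monocytes and macrophages of the 2 endogenous libraries; the last step pools cells with 30 or more. At 5 UMIs (dotted line) Ctrl_Pmel is at 18.4% and the other CD8 curves lie between 36.2% and 39.2%; Ifi27l2a is included, and without it the 2 transferred libraries are at 6.84% and 8.08%.

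Endogenous CD4 T cells and monocytes and macrophages had the highest summed ratios between the arms, with members higher in IRF4_TILs. In CD4 T cells without Foxp3, 23 of 34 measured members were higher and none lower, beside 9.51% higher and 7.24% lower among all genes measured. The median log2 ratio was 0.93 against 0.08 for all genes. Of the 23, 6 reached 10 CPM only in IRF4_TILs, and all 23 ratios had counting intervals above 1. The summed level was 4115 CPM (4017 to 4215, 310 cells) against 2326 (2247 to 2407, 236 cells), a ratio of 1.77 (1.70 to 1.84).

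The widest ratios among measured members in CD4 T cells were those of Rsad2, Cmpk2, Ifit1 and Ifit3. Rsad2 had 103 UMIs in IRF4_TILs and 4 in Ctrl_TILs, a ratio of 22.5 (8.51 to 84.0), but 2 of the 310 cells held 50% of the 103 UMIs. Ifit1 was at 146 against 14.1 CPM, a ratio of 10.4 (6.57 to 17.3), and Ifit3 at 131 against 16.2, a ratio of 8.08 (5.24 to 13.0). In IRF4_TILs 18.1% of CD4 T cells had an Ifit1 UMI and 8 cells held 50% of these UMIs, against 6.36% of cells in Ctrl_TILs. Cmpk2, a nucleotide kinase, had 44 UMIs against 3, a ratio of 12.8 (4.10 to 64.4). Isg15 was at 144 against 36.7 CPM and Usp18 at 24.6 against 4.94.

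Other members differed less in CD4 T cells. Zbp1 was at 170 against 69.8 CPM, Ifih1 at 60.9 against 28.2 and Eif2ak2, the RNA-activated kinase PKR, at 48.0 against 23.3. Bst2 had a ratio of 1.17 (0.982 to 1.41) and Samd9l 1.24, both short of 1.5. Ifi27l2a, at 1263 against 828 CPM, passed the ratio of 1.5 at 1.53 and lost the call under 5 of the settings tried. In the same cells 12 of 19 genes induced by interferon gamma were higher and 2 lower, and 15 of 29 other interferon-induced genes were higher and 3 lower. The 3 lower were Ifitm1, at 8.61 against 330 CPM, Ifitm2, at 60.2 against 174, and Ifitm3, at 104 against 286. Ifng had a ratio of 5.08. Irf7, which amplifies interferon production, was at 107 against 52.9 CPM. The 8 monocyte and macrophage markers summed to 138 CPM in these cells of IRF4_TILs and 195 in those of Ctrl_TILs, with none at 0.

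In monocytes and macrophages 30 of 36 measured members were higher in IRF4_TILs and none lower, beside 5.87% higher and 6.19% lower among all genes measured. Of the 30, 1 reached 10 CPM only in IRF4_TILs. The median log2 ratio was 0.85 against -0.04 for all genes, and the summed ratio was 1.81 (1.79 to 1.82). Ifit3b had a ratio of 3.90 (3.27 to 4.66), Ifit2 3.45 (3.21 to 3.71) and Isg15 3.04 (2.92 to 3.16). Rsad2 had 2.65 (2.53 to 2.78), though 14 of 1095 cells in IRF4_TILs and 17 of 1705 in Ctrl_TILs held 50% of its UMIs. Isg15 was spread over more cells, with a UMI in 67.8% of cells of IRF4_TILs and 50.4% of Ctrl_TILs.

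The 6 measured members short of the limit were Oas1a, Dhx58, Ddx60, Parp9, Lgals3bp and Bst2, with ratios from 1.12 to 1.47. Other interferon-induced genes were also counted: 16 of 19 genes induced by interferon gamma and 21 of 31 other interferon-induced genes were higher, and none of either list was lower. Cxcl10, a chemokine for activated T cells, was at 1034 against 372 CPM, and Gbp2, a guanylate-binding protein, at 658 against 292. Irf7 was at 314 against 132 and Socs1, an inhibitor of the receptor kinases, at 87.5 against 41.9. None of 5 measured receptor genes was called.

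The makeup of this class differed between arms: C1qa was at 515 CPM in IRF4_TILs and 1167 in Ctrl_TILs. Cells with under 2 C1q UMIs per 10000 were 76.5% of the class in IRF4_TILs and 62.8% in Ctrl_TILs. Their summed member level was 6911 against 4265 CPM, a ratio of 1.62 (1.60 to 1.64), with 23 of 36 members higher and 4.08% of all genes. In cells at or above that limit it was 5903 against 3036, a ratio of 1.94 (1.92 to 1.97), with 30 of 36 higher and 5.93% of all genes. The difference between arms was present in both ranges. The split uses C1q alone, and other differences in makeup within each range were not compared. The part of makeup in the difference between arms was therefore not tested.

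Type 2 conventional dendritic cells had 18 of 36 members higher in IRF4_TILs and 1 lower, Ifit3b, beside 5.46% and 9.34% of all genes measured (the interval of Ifit3b held 1), and a summed ratio of 1.53 (1.49 to 1.58). Plasmacytoid dendritic cells had 6 of 28 higher and 3 lower, beside 6.36% and 7.36%, with intervals that held 1 for 2 of the 3, and a summed ratio of 1.15 (1.11 to 1.19). Oasl1 was at 27.3 against 7.36 CPM and Xaf1 at 31.9 against 15.2 in these cells. NK cells had 4 of 26 higher and none lower, beside 2.13% and 2.38%: Ifi27l2a was at 48.7 against 20.1 CPM, and Isg15, Ifit1 and Oas1a had ratios of 1.54, 1.67 and 1.62, the interval of 1 of the 4, Oas1a, holding a ratio of 1. Of these 4, 2 reached 10 CPM only in IRF4_TILs, Ifit1 and Oas1a. In type 2 conventional dendritic cells this held for 1 of the 18, and Ifit3b reached 10 CPM only in Ctrl_TILs. In plasmacytoid dendritic cells 1 of the 6 reached it only in IRF4_TILs and 2 of the 3 only in Ctrl_TILs.

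Apart from CD8 T cells, with 2 lower and 1 higher, 3 classes had more members lower than higher in IRF4_TILs. Regulatory T cells (127 and 75 cells) had 9 of 34 lower and 2 higher, beside 11.6% and 6.46% of all genes measured, with Mx1 at 2.54 against 18.5 CPM and Slfn5 at 18.4 against 73.4. Each of these 9 intervals lay below 1, and 5 of the 9 members reached 10 CPM only in Ctrl_TILs. The summed ratio of regulatory T cells was 1.12 (1.08 to 1.17), and 0.924 without Ifi27l2a. Mature dendritic cells (61 and 82 cells) had 9 of 34 lower and 3 higher, beside 13.5% and 7.83%, with Ifit3 at 3.92 against 70.5 CPM, and the intervals of 3 of the 9 held 1. Of these 9 members, 4 reached 10 CPM only in Ctrl_TILs, Ifit3 among them. B cells (117 and 474 cells) had 8 of 26 lower and 1 higher, beside 11.7% and 12.9%, but the intervals of 6 of the 8 held a ratio of 1, and only those of Usp18 and Slfn5 lay below it. Of the 8, 4 reached 10 CPM only in Ctrl_TILs, Usp18 among them. Usp18 had 0 UMIs in B cells of IRF4_TILs, which allows up to 5.89 CPM, against 13.9 CPM (25 UMIs) in Ctrl_TILs. B cells had 13 of 17 genes induced by interferon gamma higher and none lower, with Gbp2 at 68.7 against 23.3 CPM and Iigp1 at a ratio of 3.28. The other interferon-induced genes went mostly the other way. Phf11b and Nlrc5 were higher, while Ifi204, Trim30b, Trim30d, Trim34a, Ifitm2, Ifitm3, Ifit1bl1 and Slfn1 were lower. The intervals of Nlrc5, Trim30d, Ifit1bl1 and Slfn1 held 1.

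**Figure D5:**
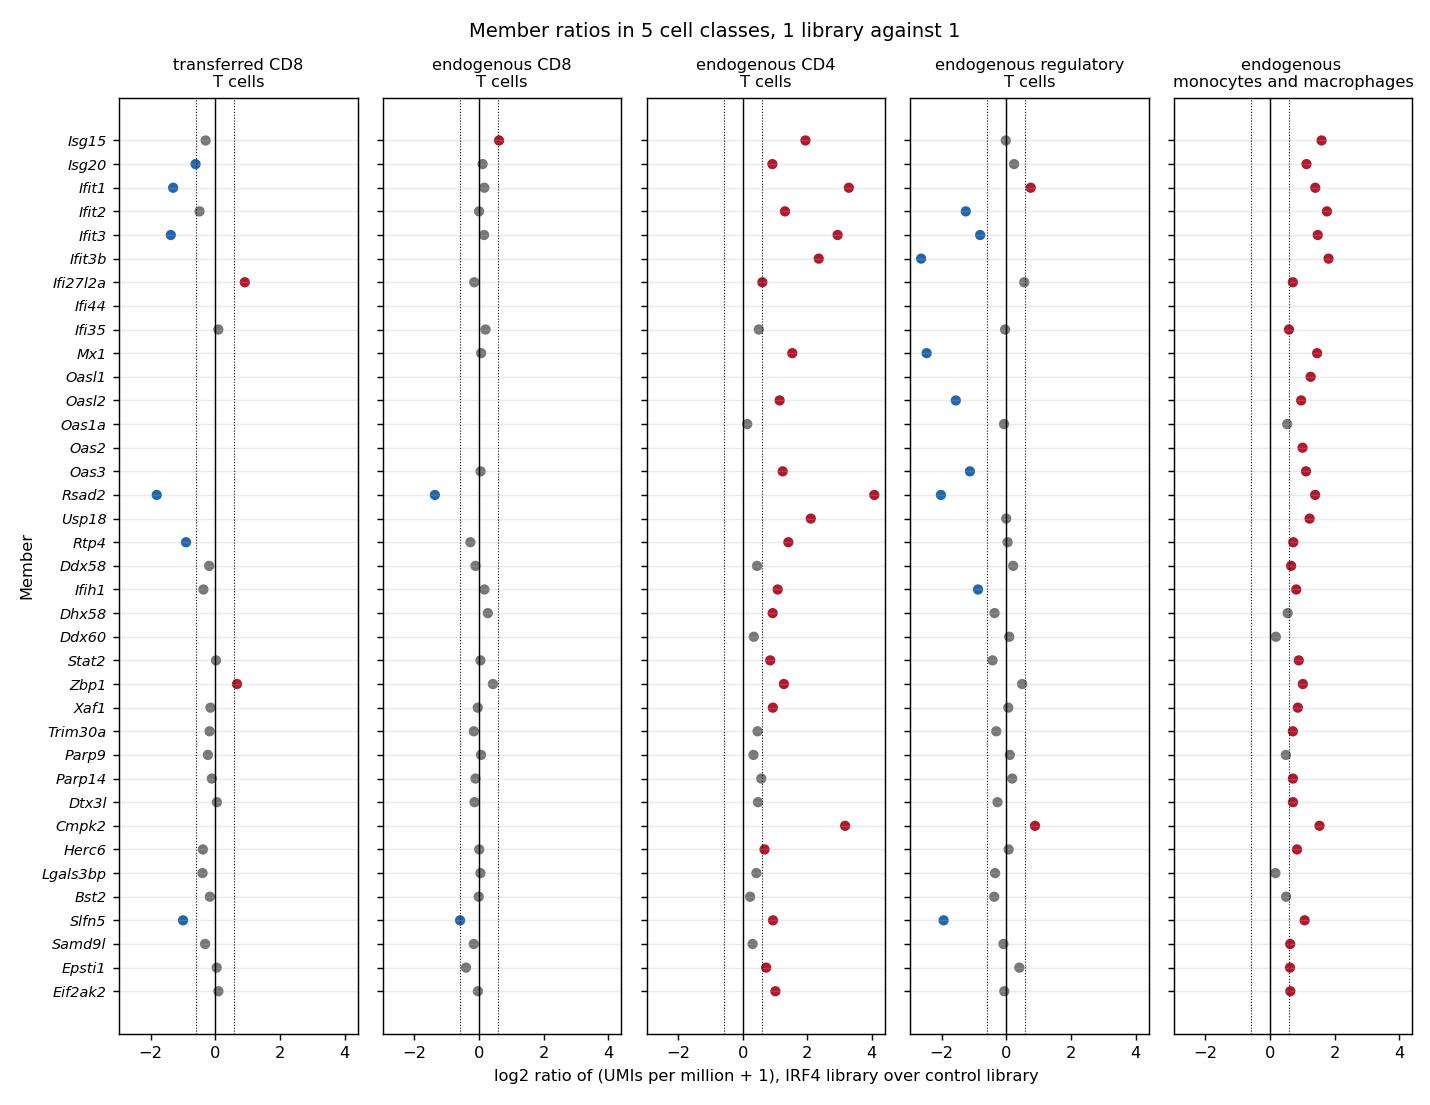
log2 ratio of (CPM + 1), IRF4 library over control library (x axis), for each member measured in 5 cell classes (panels), with dotted lines at a ratio of 1.5 in either direction; red points are higher, blue lower and grey neither. Points of CD4 T cells and of monocytes and macrophages all lie right of 0, and those of CD8 T cells lie on both sides of 0.

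Members with a promoter match were set beside those without one. In monocytes and macrophages the median log2 ratio was 0.89 over 15 members with a match and 0.85 over 12 measured members without one. In CD4 T cells it was 1.01 over 15 and 0.73 over 11, while 8 measured members with no window in the table had 1.10. The median was also higher with a match in type 2 conventional dendritic cells (0.60 against 0.45) and NK cells (0.21 against -0.03). In endogenous CD8 T cells it was 0.017 against 0.00019. In 4 other classes members with a match had the lower median: -0.37 against -0.04 in regulatory T cells, -0.25 against 0.28 in mature dendritic cells, -0.52 against -0.14 in B cells and 0.19 against 0.33 in plasmacytoid dendritic cells. The order of the medians thus differed between classes.

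Few UMIs came from the interferon genes other than Ifng, which had 42919 UMIs over all kept cells. Over all kept cells Ifnb1, interferon beta, had 472 UMIs, held by 2 cells of IRF4_Pmel, 8 of IRF4_TILs, 6 of Ctrl_Pmel and 18 of Ctrl_TILs. Single cells carried most of them, with 132 of the 144 UMIs of Ctrl_Pmel, 131 of the 247 of Ctrl_TILs and 55 of the 79 of IRF4_TILs. The cell with 55 UMIs was gated as a monocyte or macrophage, and the other 2 held markers of more than 1 lineage. Ifna4 had 5 UMIs, Ifnl2 3 and Ifnk 2, and Ifna1, Ifna2, Ifna5, Ifne and Ifnl3 had 0. At this depth a low interferon level could not be detected.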

How the data were processed

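Single-cell libraries were made with a droplet 3′ kit, and the labels' protocol speaks of both cells and a nucleus suspension, so which was loaded was not settled. The authors deposited raw UMI counts per gene and barcode for each library, with no normalization. Per the submitters' processing notes, Cell Ranger 3.0.2, STAR 2.6 and the build mm10 were used. The filters that made the deposited barcode lists are not given in the sources used here.

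Barcodes were kept from 1000 UMIs and 500 genes upward if mitochondrial genes gave no more than 10% of UMIs, which left 15132 cells. Cells were assigned to 12 classes by summed UMIs of markers per 10000, with thresholds set after looking at marker levels, and 11986 cells (79.2%) fell in a class. Cells past the gates of more than 1 lineage were left out, and no doublet caller was run. Counts were summed per class and library and given as CPM (per 1000000 UMIs of the same cells). With 1 library per group no test across samples exists, so no p-value is given. Intervals are at 95%: exact Poisson for levels, conditional binomial for ratios, Clopper-Pearson for shares. They cover counting error only, since reads of one molecule were merged but mice were not replicated.

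A gene was measured where either library reached 10 CPM, and counted as higher or lower once (CPM + 1) differed 1.5-fold. For shares of cells, each cell was thinned to 2000 UMIs. The named genes were all 37 members, the pathway lists, the 10 genes with the most similar pattern and Irf4. The members and lists were chosen with earlier results of these data known. Positions came from GENCODE vM21 and promoter windows from RefSeq (GRCm38.p6). Alternatives covered cell filters, gates, scaling, pseudocount, the measured limit, thinning, cycling cells, cell weights, the dominant member and the motif. The summing and calling steps were tested on simulated data. Python 3.11.15, numpy 2.4.6, scipy 1.17.1, pandas 2.3.3, matplotlib 3.10.9 and biopython 1.88 were used. A few genes that the rule for named genes would name are not reported here.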

Additional observations from a re-analysis of the deposited data

Results flagged for a closer look

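In endogenous regulatory T cells 9 members were lower in IRF4_TILs than in Ctrl_TILs while they were higher in endogenous CD4 T cells, and they are listed because the calls of these 9 members were opposite in the 2 cell types. The regulatory T cells as a class were not lower: their summed ratio was 1.12 (1.08 to 1.17), and 23 of 34 measured members were called in neither direction. The log2 ratio in CD4 T cells and then in regulatory T cells was 1.31 and -1.25 for Ifit2, 2.94 and -0.81 for Ifit3, and 2.35 and -2.64 for Ifit3b. It was 1.54 and -2.47 for Mx1, 1.14 and -1.56 for Oasl2, and 1.24 and -1.13 for Oas3. It was 4.07 and -2.02 for Rsad2, 1.08 and -0.88 for Ifih1, and 0.94 and -1.94 for Slfn5. Among all genes measured, 9.51% were higher in CD4 T cells and 11.6% lower in regulatory T cells. The share of all genes with opposite calls is not given here. In regulatory T cells 5 of the 9 members reached 10 CPM only in Ctrl_TILs. In CD4 T cells Ifit3b, Mx1 and Rsad2 reached 10 CPM only in IRF4_TILs. These members thus entered each side only through the library where they were higher. The Rsad2 UMIs of CD4 T cells of IRF4_TILs also sat in few cells, as given above. UMIs were few in regulatory T cells, such as 3 against 23 for Ifit3b and 35 against 56 for Ifih1. The difference between the cell types was not tested, because each arm has 1 library, and the regulatory T cell values rest on 127 and 75 cells.

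Cells that the marker gates left out of every comparison also held member UMIs. In cells with markers of more than 1 lineage the summed level was 3033 CPM in IRF4_Pmel, 3513 in IRF4_TILs, 1998 in Ctrl_Pmel and 2959 in Ctrl_TILs. In cells that passed no gate it was 1994 CPM in IRF4_Pmel, 3314 in IRF4_TILs, 1435 in Ctrl_Pmel and 2579 in Ctrl_TILs. Both kinds of cell had a higher summed level in the library of the IRF4 arm than in the matching control library. The IRF4_Pmel values rest on 37 cells with markers of more than 1 lineage and 14 that passed no gate. The part of Ifi27l2a in these sums is not given here.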

How the results depend on the processing

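With 1 library in each group, the limits that matter are depth and cell choice: the intervals cover counting error only, and the spread between mice cannot be told apart from the arms. The intervals of the summed ratios are narrow, so most settings move a summed value past them, as listed next. No paired analysis was possible because each group has 1 library and the titles carry no replicate number. The comparisons of type 1 conventional dendritic cells, neutrophils and mast cells or basophils between arms were not run, because fewer than 50 cells were gated in IRF4_TILs. The median log2 ratio of members in transferred over endogenous CD8 T cells stayed past a ratio of 1.5 in both arms under every setting run, while that of endogenous CD8 T cells between arms ranged from -0.27 to 0.25 and changed sign. The cause of each shift was not tested.

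With every gate threshold doubled, the summed log2 ratio was 0.30 for transferred CD8 T cells, -0.062 for endogenous CD8 T cells, -0.11 for transferred over endogenous CD8 T cells in the IRF4 arm, -0.47 for transferred over endogenous CD8 T cells in the control arm, 0.57 for type 2 conventional dendritic cells and 0.20 for mature dendritic cells. Without the 6% of cells with most UMIs, the summed log2 ratio was 0.43 for transferred CD8 T cells, -0.27 for transferred over endogenous CD8 T cells in the IRF4 arm, -0.80 for transferred over endogenous CD8 T cells in the control arm, 0.90 for CD4 T cells, 0.27 for regulatory T cells, 0.17 for NK cells and -0.0028 for B cells. With every cell thinned to 2000 UMIs, the summed log2 ratio was 0.52 for transferred CD8 T cells, 0.030 for endogenous CD8 T cells, -0.26 for transferred over endogenous CD8 T cells in the IRF4 arm, -0.75 for transferred over endogenous CD8 T cells in the control arm, 0.18 for NK cells, 0.014 for B cells, 0.73 for monocytes and macrophages, 0.52 for type 2 conventional dendritic cells and 0.31 for plasmacytoid dendritic cells. Over cells without a UMI of 5 cycling markers, the summed log2 ratio was 0.59 for transferred CD8 T cells, 0.25 for endogenous CD8 T cells, -0.52 for transferred over endogenous CD8 T cells in the IRF4 arm, -0.86 for transferred over endogenous CD8 T cells in the control arm, 0.88 for CD4 T cells, 0.14 for NK cells, -0.0050 for B cells and 0.76 for monocytes and macrophages. With equal weight per cell, the summed log2 ratio was 0.52 for transferred CD8 T cells, 0.038 for endogenous CD8 T cells, -0.27 for transferred over endogenous CD8 T cells in the IRF4 arm, -0.75 for transferred over endogenous CD8 T cells in the control arm, 0.25 for regulatory T cells, 0.14 for NK cells, -0.0024 for B cells, 0.76 for monocytes and macrophages and 0.50 for type 2 conventional dendritic cells. Without the member with most UMIs, the summed log2 ratio was -0.17 for transferred CD8 T cells, -0.86 for transferred over endogenous CD8 T cells in the IRF4 arm, -0.77 for transferred over endogenous CD8 T cells in the control arm, 0.93 for CD4 T cells, -0.11 for regulatory T cells, 0.14 for NK cells, 0.92 for monocytes and macrophages, 0.016 for mature dendritic cells and 0.31 for plasmacytoid dendritic cells. Over cells without a UMI of 8 monocyte and macrophage markers, the summed log2 ratio was 0.31 for transferred CD8 T cells, -0.32 for endogenous CD8 T cells, -0.47 for transferred over endogenous CD8 T cells in the IRF4 arm and -1.11 for transferred over endogenous CD8 T cells in the control arm. Scaled to the median gene ratio, the summed log2 ratio was -0.10 for transferred over endogenous CD8 T cells in the IRF4 arm, -0.46 for transferred over endogenous CD8 T cells in the control arm, 0.74 for CD4 T cells, 0.14 for NK cells and 0.90 for monocytes and macrophages. Below 2 C1q UMIs per 10000, the summed log2 ratio was 0.70 for monocytes and macrophages. At or above 2 C1q UMIs per 10000, the summed log2 ratio was 0.96 for monocytes and macrophages. The count of members higher in transferred CD8 T cells, 2 in the main setting, was 1 with equal weight per cell. The count of members higher in endogenous CD8 T cells, 1 in the main setting, was 0 with a pseudocount of 5, 2 with every cell thinned to 2000 UMIs, 7 over cells without a UMI of 5 cycling markers and 2 with equal weight per cell. The count of members lower in transferred CD8 T cells, 6 in the main setting, was 3 without the 6% of cells with most UMIs, 11 measured from 1 CPM, 0 measured from 25 CPM, 3 over cells without a UMI of 5 cycling markers and 3 over cells without a UMI of 8 monocyte and macrophage markers. The count of members lower in endogenous CD8 T cells, 2 in the main setting, was 1 with no mitochondrial limit, 1 with every gate threshold doubled, 4 without the 6% of cells with most UMIs, 1 with a pseudocount of 5, 4 measured from 1 CPM, 1 measured from 25 CPM and 1 over cells without a UMI of 5 cycling markers. The count of members lower in transferred over endogenous CD8 T cells in the IRF4 arm, 20 in the main setting, was 13 measured from 25 CPM and 31 over cells without a UMI of 5 cycling markers. The count of members lower in transferred over endogenous CD8 T cells in the control arm, 19 in the main setting, was 29 over cells without a UMI of 8 monocyte and macrophage markers. At a limit of 10 member UMIs, the share of cells past the limit was 8.85% for CD8 T cells of IRF4_Pmel, 2.29% for CD8 T cells of Ctrl_Pmel, 10.9% for CD8 T cells of IRF4_TILs, 11.5% for CD8 T cells of Ctrl_TILs, 20% for CD4 T cells of IRF4_TILs, 9.79% for CD4 T cells of Ctrl_TILs, 54.8% for monocytes and macrophages of IRF4_TILs and 28.1% for monocytes and macrophages of Ctrl_TILs. Without Ifi27l2a, the share of cells past the limit was 6.84% for CD8 T cells of IRF4_Pmel, 8.08% for CD8 T cells of Ctrl_Pmel, 27.7% for CD8 T cells of IRF4_TILs, 28.2% for CD8 T cells of Ctrl_TILs, 36.5% for CD4 T cells of IRF4_TILs, 19.6% for CD4 T cells of Ctrl_TILs, 63% for monocytes and macrophages of IRF4_TILs and 40.2% for monocytes and macrophages of Ctrl_TILs. Over cells without a UMI of 5 cycling markers, the share of cells past the limit was 22.1% for CD8 T cells of Ctrl_Pmel, 51.2% for CD8 T cells of IRF4_TILs, 43.4% for CD8 T cells of Ctrl_TILs and 65.6% for monocytes and macrophages of Ctrl_TILs. With a C required as the first of the 2 free bases of the promoter motif, 32.1% of members with a promoter window held a match. For single members, 413 of the values under other settings kept their call, 29 lost it and 2 reversed. The 413 include 37 values measured from 1 CPM and 37 measured from 25 CPM. A single member's call was scored there by its ratio alone, which the measured limit does not enter, so these values could not change. Both reversals were Slfn5 in endogenous CD8 T cells, at log2 ratios of 0.14 over cells without a UMI of the cycling markers and 0.036 over cells without a UMI of the monocyte and macrophage markers. The settings on monocyte and macrophage marker UMIs and on C1q, and the shares without Ifi27l2a, were chosen after seeing the data. Over the 9 classes with at least 50 cells in both endogenous libraries, and with the 2 libraries averaged, the highest class had 3.39 times the summed level of the lowest, 3.30 to 3.51 under other settings, and the lowest of the 9 was NK cells in place of B cells with every gate threshold doubled. Over all 12 classes the ratio was 5.87 in IRF4_TILs and 7.62 in Ctrl_TILs, with mast cells or basophils lowest.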
